A study of Mus musculus with 27 samples.

Results

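In all, 9 genes of oxidant production and oxidant removal were followed in phagocytes sorted from the inflamed mouse colon: the phagocyte oxidase subunits Cybb, Cyba, Ncf1, Ncf4 and Rac2, and the antioxidant enzymes Sod2, Cat, Gpx1 and Mgst1. Every probe whose symbol in the deposited intensity table equals one of these names was taken, which gave 13 probes of 45281, for 9 genes of 30869 symbols. The Illumina mouse BeadChip used here reads each transcript with short probes copied on many beads, and the 13 probes were read on 16 to 57 beads per array. WT mice and littermates lacking Mbd2 in all cells (Mbd2-/-) were adult, on a C57BL/6 background, co-housed, and all given 2% dextran sulphate sodium (DSS) in their drinking water, an agent that breaks the colonic epithelial barrier and causes colitis. Each array held RNA from 1 or more mice, from lamina propria cells sorted as Ly6C+ monocytes (5 WT and 5 Mbd2-/- arrays), Ly6C- MHC-II+ F4/80+ macrophages (5 and 5) or CD103+ CD11b- cDC1s (2 and 3), after exclusion of Ly6G+ and Siglec-F+ cells. No array from mice without DSS enters these comparisons, so that no value below says how a gene responds to DSS.

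The phagocyte oxidase is a membrane enzyme that passes electrons from NADPH to oxygen and makes superoxide, which phagocytes use against ingested microbes. Its catalytic core is a heterodimer of the products of Cybb and Cyba. Cytosolic proteins, among them those encoded by Ncf1 and Ncf4, move to this core on activation together with a Rac GTPase, and loss of Cybb, Cyba, Ncf1 or Ncf4 function underlies chronic granulomatous disease, in which colitis is common. Superoxide is converted to hydrogen peroxide by superoxide dismutases, of which Sod2 encodes the mitochondrial form. Catalase (Cat) and glutathione peroxidase (Gpx1) then remove the peroxide, and Mgst1 encodes a membrane-bound glutathione transferase that also reduces lipid peroxides. Mbd2 is a reader of methylated CpG dinucleotides that recruits a repressive chromatin complex.

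Since Mbd2 reads CpG methylation, the 250 bases before the start sites of Mgst1, the member with the largest genotype difference, are shown together with those of Sod2, whose genotype differences did not pass the test in any of the 3 cell types. The sequences are RefSeq's on GRCm38.p6, read 5′ to 3′ on the plus strand, which is the coding strand of both genes, with each CpG in capitals. The first and second Mgst1 windows are chr6:138140277-138140526 and chr6:138141337-138141586, and the Sod2 window is chr17:13007589-13007838.
Mgst1 first start: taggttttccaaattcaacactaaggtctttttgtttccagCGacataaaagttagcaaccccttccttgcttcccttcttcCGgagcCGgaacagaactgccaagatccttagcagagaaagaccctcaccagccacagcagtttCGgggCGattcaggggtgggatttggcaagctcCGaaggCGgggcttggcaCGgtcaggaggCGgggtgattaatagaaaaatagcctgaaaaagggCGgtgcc
Mgst1 second start: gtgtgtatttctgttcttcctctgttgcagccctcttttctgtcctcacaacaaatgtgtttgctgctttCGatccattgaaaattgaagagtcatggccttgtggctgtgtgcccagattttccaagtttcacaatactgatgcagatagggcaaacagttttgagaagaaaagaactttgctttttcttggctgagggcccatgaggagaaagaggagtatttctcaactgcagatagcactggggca
Sod2: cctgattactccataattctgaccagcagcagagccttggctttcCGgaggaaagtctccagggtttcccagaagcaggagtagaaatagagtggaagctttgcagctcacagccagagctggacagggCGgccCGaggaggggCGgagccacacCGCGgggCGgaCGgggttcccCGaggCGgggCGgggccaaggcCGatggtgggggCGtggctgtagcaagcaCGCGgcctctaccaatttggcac

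The first Mgst1 window held 10 CpG dinucleotides, the second held 1, and the Sod2 window held 15. Over all 32851 mouse windows of this length the median was 6, and 64.4% held as few CpGs as the first Mgst1 window or fewer, against 18.8% for the second and 74.6% for Sod2. Of the 9 members, 7 had a window, with no entry for Ncf4 and Rac2, and the other 5 genes held 9 (Cat), 7 (Gpx1), 6 (Cyba), 2 (Ncf1) and 1 (Cybb) CpGs. The antioxidant response element core TGACNNNGC, searched on both strands, was found in the first Mgst1 window only, on the minus strand beginning 56 bases before the start, and 10.2% of all windows held it. The purine-rich core GAGGAA, also searched on both strands, was found for Sod2, Cat and the second Mgst1 start, and 23.3% of all windows held it. CpG methylation was not measured in these samples, and a match of letters is no evidence of a bound factor.

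All 25 colon arrays detected between 16024 and 18608 probes at a detection p-value under 0.05, with mean raw intensities of 172 to 353 per array. Levels below are normalized log2 intensities, on which 1 unit is a 2-fold step, and they can be set side by side between arrays for the same probe but not between genes. None of the 25 arrays read the single Mbd2 probe above background (the smallest detection value was 0.0566, over the limit of 0.05), so the genotype labels could not be checked from it. On the cDC1 arrays the cDC1 marker list summed to 13112 to 14877 in linear intensity units, against 1106 to 2272 on the other arrays, while of the monocyte list Ccr2 was above background on at most 2 arrays of any group. Epithelial transcripts (10 genes listed, Epcam at or near background) were present in every group, at summed levels of 5736 to 22265. One WT macrophage array (number 12 in the labels) and 1 Mbd2-/- macrophage array (number 20) stood apart from their groups, with median correlations of 0.954 and 0.956 to their own group against at least 0.972 for the other macrophage arrays, and the WT cDC1 pair correlated at 0.959, below the 0.973 of WT cDC1 array 26 with Mbd2-/- cDC1 array 27. Several macrophage values that moved by over 1.5 times without arrays 12 and 20 are therefore given both ways, though not every one.

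Mgst1 showed the largest difference between genotypes of the 9 genes: its level was 2.17-fold higher in Mbd2-/- macrophages than in WT macrophages. On the brighter of its 2 probes the 5 WT macrophage arrays read 8.23, 7.93, 8.39, 7.75 and 8.18. The 5 Mbd2-/- macrophage arrays read 8.82, 9.11, 9.29, 9.44 and 9.41. The lowest Mbd2-/- array therefore lay above the highest WT array, and the same held for the raw intensities, which ran from 303 to 408 in WT and from 512 to 1060 in Mbd2-/- macrophages. The difference was 1.12 on the log2 scale (SE 0.22, 95% interval 0.67 to 1.57, n = 5 and 5), with an adjusted p of 0.00547 by limma with Benjamini-Hochberg adjustment over all probes tested. It passed the threshold of 0.05 in each of 22 alternative analyses, between 0.94 and 1.22 on the log2 scale, with a highest adjusted p of 0.0462, reached when arrays 12 and 20 were both left out.

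The dimmer Mgst1 probe, whose place on the transcript was not looked up, gave 6.83, 5.76, 6.89, 6.60 and 6.78 in WT macrophages. Mbd2-/- macrophages gave 7.72, 7.66, 8.42, 8.74 and 8.74. Again no Mbd2-/- array overlapped a WT array, and the log2 difference was 1.68 (SE 0.31, 3.21-fold, adjusted p = 0.00395, limma). Without arrays 12 and 20 it was 1.36 (adjusted p = 0.0399). Over the 25 arrays the brighter and the dimmer probe correlated at r = 0.94, and at r = 0.81 once each group's mean was taken out, a description in which both probes share the same libraries.

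**Figure D1:**
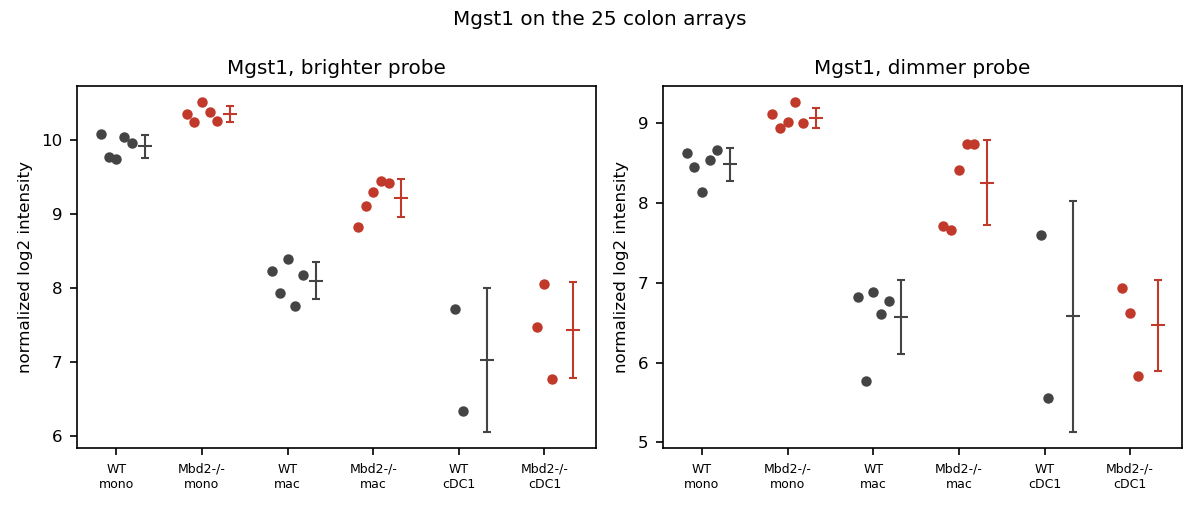
Normalized log2 intensity of Mgst1 (y axis) on each of the 25 colon arrays by cell type and genotype (x axis), with one panel for each of its 2 probes, points for arrays and bars for the mean and SD of a group. In both panels the Mbd2-/- macrophages sit above the WT macrophages without overlap, monocytes of both genotypes lie highest on average, and the 2 WT cDC1 arrays lie far apart.

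Mgst1 was also higher on every Mbd2-/- monocyte array than on any WT monocyte array, but by less. WT monocytes read 10.07, 9.76, 9.74, 10.03 and 9.96 on the brighter probe, and Mbd2-/- monocytes read 10.35, 10.24, 10.50, 10.37 and 10.25. The log2 difference of 0.43 (SE 0.22) did not pass (adjusted p = 0.357, limma) in the model over all 6 groups, nor did the 0.58 on the dimmer probe (adjusted p = 0.389). With the monocyte arrays normalized and fitted alone, so that their own spread set the error, the differences were 0.44 (adjusted p = 0.0254) and 0.60 (adjusted p = 0.0183).

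In cDC1s the Mgst1 readings scattered too widely for a comparison, at 7.71 and 6.34 in WT and 7.47, 8.05 and 6.77 in Mbd2-/- arrays on the brighter probe. The differences were 0.40 on that probe (adjusted p = 0.445) and -0.11 on the dimmer one (adjusted p = 0.904, limma). The difference between the macrophage and the monocyte genotype effect was itself 0.69 (unadjusted p = 0.0349, adjusted p = 0.591, limma), so that it was not shown that Mgst1 responded more in macrophages. Between cDC1s and macrophages the effects differed by -0.72 on the brighter probe (adjusted p = 0.251) and by -1.80 on the dimmer one (adjusted p = 0.0474), and the latter was -0.77 (adjusted p = 0.506) without WT cDC1 array 23.

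Because Mgst1 was higher in monocytes than in macrophages, the monocyte markers are given beside it. Of 9 listed monocyte markers 7 had a probe, and their summed linear intensity was 5798 to 7917 on Mbd2-/- macrophage arrays, 4023 to 6772 on WT macrophage arrays and 14922 to 25899 on monocyte arrays. Of the 6 that were tested in macrophages, Ly6c1 (0.91 log2, adjusted p = 0.0482) and Plac8 (0.45 log2, adjusted p = 0.0285) were higher in Mbd2-/- arrays and none was lower (limma). Ccr2 was above background on 0 of 5 WT and 2 of 5 Mbd2-/- macrophage arrays. Of the macrophage list, which summed to 37027 to 44017 in Mbd2-/- and 37552 to 43343 in WT macrophages, 1 of 9 tested genes was higher (Mertk, 0.88, adjusted p = 0.00718) and of 5 cDC1 markers 1 was lower (Zbtb46, -0.55, adjusted p = 0.00468, limma), at list sums of 1787 to 2212 and 1629 to 2272. Of the eosinophil list 1 gene was tested and was higher (Prg2, 0.91, adjusted p = 0.0205, limma), at list sums of 145 to 216 in Mbd2-/- and 130 to 155 in WT macrophages. The neutrophil list summed to 970 to 1792 in Mbd2-/- and 1230 to 1812 in WT macrophages, with Prtn3 lower and 3 other tested genes not passing, and 0 of 9 tested epithelial markers differed. The part of these transcripts in the Mgst1 difference was not tested, and in bulk RNA a change in the mix of cells cannot be told apart from a change in RNA per cell.

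Among the oxidase genes, a genotype difference passed only for Cyba in cDC1s. Cyba, the membrane partner of the catalytic subunit, read 12.07 and 12.49 on the WT cDC1 arrays and 12.67, 12.81 and 12.76 on the Mbd2-/- cDC1 arrays. The groups did not overlap, and the log2 difference of 0.47 (SE 0.13, 95% interval 0.20 to 0.75, n = 2 and 3) passed with an adjusted p of 0.0300 (limma). It rested largely on WT cDC1 array 23, without which it was 0.26 (adjusted p = 0.396). Without Mbd2-/- cDC1 array 28 or 30 it was 0.44 (adjusted p = 0.0766) and 0.46 (adjusted p = 0.0723), and over all 15 alternatives it passed in 8. The WT and Mbd2-/- cDC1 arrays also stand in different blocks of 6 columns in the deposited table, the number of arrays on 1 BeadChip, so that genotype and a possible chip cannot be told apart in cDC1s. Some markers of other cells were also higher in Mbd2-/- cDC1s. The macrophage list summed to 1659 to 3925 on Mbd2-/- and 1406 to 1465 on WT cDC1 arrays, with 1 of 9 tested genes higher (C1qb, 0.93, adjusted p = 0.0109, limma). The neutrophil list summed to 356 to 597 and 313 to 323, with 1 of 4 higher (Ltf, 1.07, adjusted p = 0.0317, limma), and the eosinophil list to 137 to 160 and 106 to 119, with 1 of 2 higher (Prg2, 1.27, adjusted p = 0.0181, limma). The monocyte list summed to 7765 to 9825 and 6689 to 6979, with 0 of 5 passing. The T cell list was lower by median in Mbd2-/- than in WT cDC1s (1118 against 1680). Its ranges overlapped, at 358 to 2197 and 621 to 2740, with 0 of 4 tested genes passing. The part of all these transcripts in the Cyba difference was not tested.

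In monocytes and macrophages Cyba differed by 0.16 (adjusted p = 0.426) and 0.05 (adjusted p = 0.787, limma) on the log2 scale, and its genotype effect in cDC1s against that in macrophages differed by 0.43 (adjusted p = 0.102). Its levels were 13.11 ± 0.17 in WT and 13.27 ± 0.13 in Mbd2-/- monocytes (SD, n = 5 each). Macrophages read 13.06 ± 0.15 and 13.11 ± 0.11 in the same order.

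Ncf4, the cytosolic regulatory subunit that binds phosphoinositides of the phagosome, lay just outside the threshold in macrophages. WT macrophages read 11.23, 11.34, 10.98, 11.16 and 10.86, and Mbd2-/- macrophages read 11.00, 10.75, 10.72, 10.68 and 10.88. The ranges overlapped, and the log2 difference of -0.31 (SE 0.09) had an adjusted p of 0.0505 (limma). It passed in 6 of 22 alternatives, among them those without WT array 13 (-0.34), WT array 15 (-0.37) or Mbd2-/- array 16 (-0.36, adjusted p = 0.0486, 0.0178 and 0.0345), and without WT macrophage array 12 it was -0.25 (adjusted p = 0.161). Monocytes read 11.55 ± 0.15 in WT and 11.39 ± 0.15 in Mbd2-/- arrays (SD, n = 5 each), a log2 difference of -0.15 (adjusted p = 0.480), and cDC1s differed by 0.18 (adjusted p = 0.419).

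Rac2, the Rac GTPase of blood cells, was read at 10.58, 10.50, 10.59, 10.25 and 10.36 in WT monocytes and at 10.30, 10.07, 10.23, 10.02 and 10.04 in Mbd2-/- monocytes. Only the highest Mbd2-/- array and the lowest WT array overlapped, yet the log2 difference of -0.33 (SE 0.12, unadjusted p = 0.0142) did not pass (adjusted p = 0.181, limma). With array weights it was -0.35 (adjusted p = 0.0328). In macrophages Rac2 differed by -0.16 (adjusted p = 0.423), or by -0.29 (adjusted p = 0.114) without WT array 12 and -0.30 (adjusted p = 0.187) without arrays 12 and 20, and in cDC1s by 0.09 (adjusted p = 0.805).

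Ncf1 encodes the organizer subunit, which becomes phosphorylated and bridges the cytosolic proteins to the membrane core. Its brighter probe ran from 8.08 to 8.55 in WT monocytes and from 7.56 to 8.65 in Mbd2-/- monocytes. In macrophages it ran from 7.72 to 8.60 and from 8.23 to 8.57, and no genotype difference passed in monocytes (-0.12, adjusted p = 0.819), macrophages (0.23, adjusted p = 0.467) or cDC1s (0.04, adjusted p = 0.943, limma). The macrophage value was 0.11 (adjusted p = 0.803) without WT array 12 and 0.068 (adjusted p = 0.931) without arrays 12 and 20. The 2 probes of Ncf1 disagreed in cDC1s: the dimmer one read 4.57 and 4.38 in WT, with 1 of 2 arrays above background, and 5.37, 4.80 and 6.25 in Mbd2-/- cDC1s, a log2 difference of 1.00 (adjusted p = 0.0359). When 1 cDC1 array was left out this ran from 0.61 to 1.33 and passed in 2 of 5 fits, being lost without WT array 23 or 26 (adjusted p = 0.115 and 0.126) or Mbd2-/- array 30 (adjusted p = 0.151, limma).

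Cybb, which encodes the catalytic subunit, could hardly be read. Its better probe was above background on 10 of 25 arrays (3 WT and 3 Mbd2-/- monocyte arrays, 1 WT and 3 Mbd2-/- macrophage arrays, no cDC1 array), and its other probe, for which no RefSeq match was found, on none. Levels ran from 4.31 to 5.06 in monocytes, 4.30 to 5.16 in macrophages and 4.21 to 4.66 in cDC1s. In monocytes, where alone of the 3 cell types a genotype test was made, the log2 difference was -0.03 (95% interval -0.39 to 0.33, adjusted p = 0.960, limma). Whether the probe or a low transcript level set these readings was not tested, and they do not show that the transcript was low.

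Sod2 was read well above background in all 3 cell types, and none of its genotype differences passed. WT monocytes read 12.59, 12.58, 12.66, 12.97 and 13.00, and Mbd2-/- monocytes read 12.94, 12.91, 12.97, 13.07 and 13.11, a log2 difference of 0.24 (SE 0.11, unadjusted p = 0.0347, adjusted p = 0.275, limma). The highest WT arrays lay within the Mbd2-/- range. In macrophages the readings were 12.01, 12.03, 12.34, 12.59 and 12.52 in WT and 12.36, 12.49, 12.50, 12.61 and 12.47 in Mbd2-/-, a difference of 0.19 (adjusted p = 0.273; 0.12 without WT array 12), and in cDC1s the difference was 0.09 (adjusted p = 0.754).

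Cat, the peroxisomal catalase, read 7.30, 7.84, 7.40, 7.09 and 7.08 in WT and 7.09, 7.11, 6.82, 6.95 and 7.05 in Mbd2-/- monocytes. WT macrophages read 7.69, 6.77, 7.80, 7.64 and 7.66, and Mbd2-/- macrophages read 7.88, 7.98, 7.94, 7.84 and 7.30. The differences were -0.34 in monocytes (adjusted p = 0.404) and 0.27 in macrophages (adjusted p = 0.371), and the difference between both effects was 0.61 (unadjusted p = 0.0294, adjusted p = 0.573, limma). Without WT macrophage array 12, the low one, the macrophage value was 0.09. It was 0.39 without Mbd2-/- array 20 and 0.21 (adjusted p = 0.566) without both arrays. In cDC1s the WT arrays read 7.81 and 8.02 and the Mbd2-/- arrays 7.74, 7.06 and 7.72 (-0.41, adjusted p = 0.357). The dimmer Cat probe differed the other way there, by 0.52 (adjusted p = 0.158), or 0.19 to 0.70 when 1 array was left out. No RefSeq match was found for it, and it was above background on 1 of 2 WT cDC1 arrays. In macrophages it also went the other way, with means of 4.94 in WT and 4.68 in Mbd2-/- arrays. On this probe the macrophage and monocyte effects differed by -0.082 to 0.12 when 1 array was left out, so the 0.61 rests on the brighter probe.

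Gpx1 was a uniform reading but for 1 array. WT monocytes ran from 13.05 to 13.53 and Mbd2-/- monocytes from 13.22 to 13.46. WT macrophages read 12.97, 10.81, 13.08, 13.08 and 13.11, and Mbd2-/- macrophages read 13.25, 13.08, 12.85, 13.34 and 13.39. The log2 difference of 0.57 in macrophages (SE 0.30, adjusted p = 0.230, limma) rested on array 12, without which it was 0.12 (adjusted p = 0.584), and it was 0.072 (adjusted p = 0.836) without arrays 12 and 20. In monocytes it was 0.06 (adjusted p = 0.955) and in cDC1s -0.05 (adjusted p = 0.961).

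**Figure D2:**
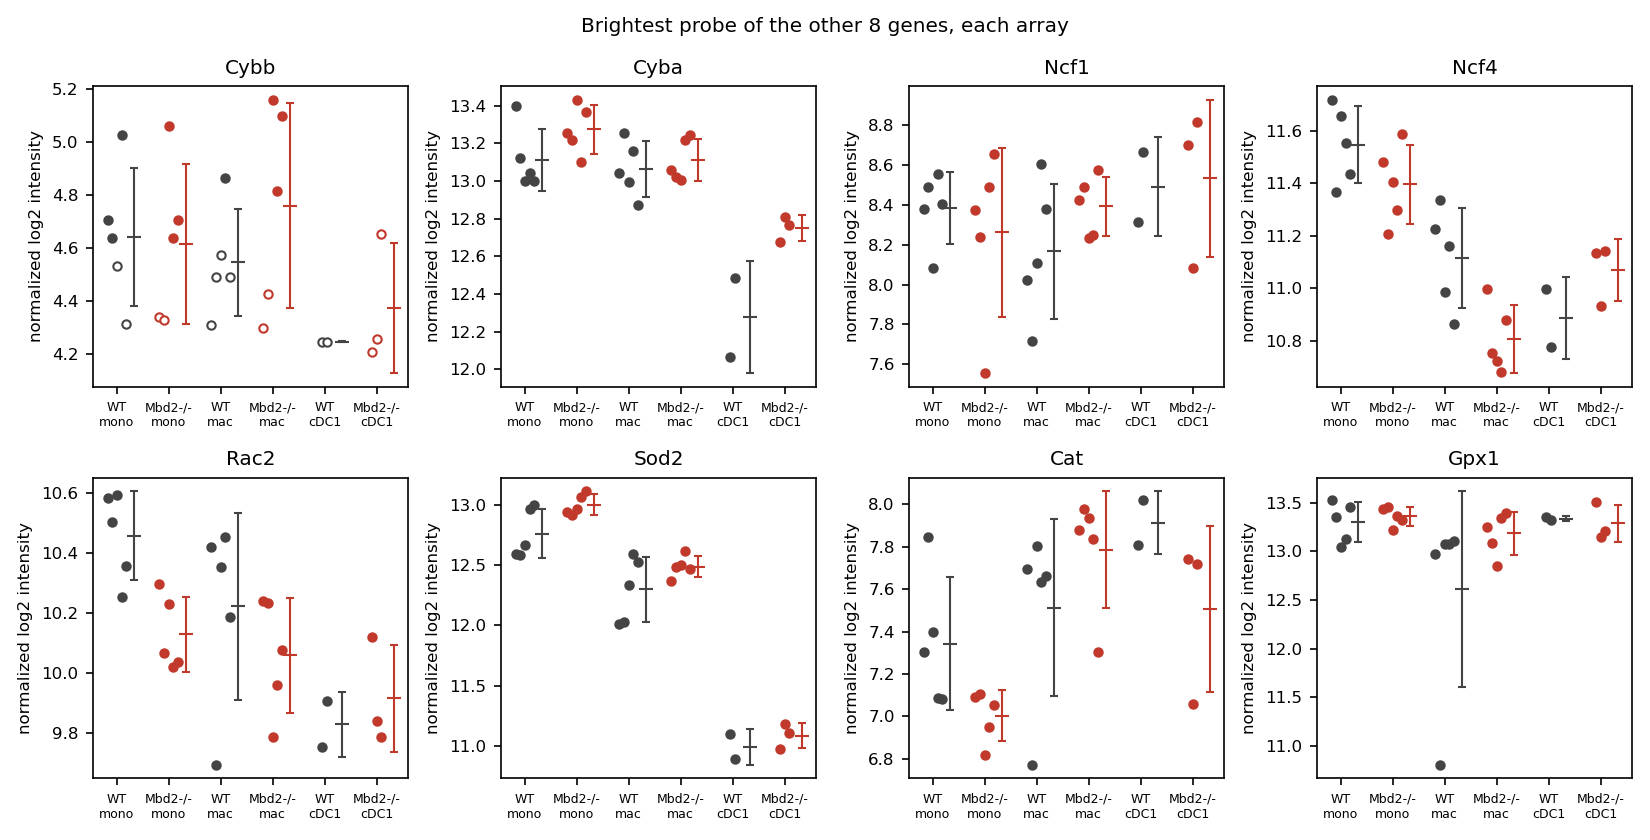
Normalized log2 intensity (y axis, one scale per panel) of the brightest probe of the 8 genes other than Mgst1 on each of the 25 colon arrays, by cell type (mono for monocytes, mac for macrophages) and genotype, with bars for the mean and SD and open points for arrays not above background. Sod2 steps down from monocytes to cDC1s, Cyba is lowest in the 2 WT cDC1 arrays, and 1 WT macrophage array at 10.81 stands apart for Gpx1.

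Counted together, 9 members were tested between genotypes in monocytes and 0 passed, where 1.08% of all 11992 genes tested passed as higher and 1.43% as lower. At an unadjusted p under 0.05 there were 2 members (Rac2 and Sod2), and 1 member, Mgst1, did not overlap between genotypes, against 5.1% of all genes. In macrophages 1 of 8 passed, Mgst1, against 3.04% higher and 4.14% lower among 12515 genes, and the same gene alone did not overlap, against 5.18%. In cDC1s 1 of 8 passed, Cyba, against 4.91% higher and 3.85% lower among 13051 genes, and Cyba and Cat did not overlap, against 32.1% with 2 arrays set against 3. The median log2 difference of the members beside that of all genes was -0.03 and -0.03 in monocytes, 0.21 and -0.08 in macrophages, and 0.09 and 0.05 in cDC1s. Tests of a difference between genotype effects passed for 0 of 9 members by the brightest probe, where the passing shares of all genes were 0.0145% higher and 0.0145% lower for macrophages against monocytes, 4.24% and 3.21% for cDC1s against macrophages, and 0.997% and 0.624% for cDC1s against monocytes. At an unadjusted p under 0.05 there were 2 members (Cat and Mgst1) in the first of these, 3 (Cyba, Ncf4 and Cat) in the second and 0 in the last (limma). Between genotypes the count at that limit was 2 in macrophages and 1 in cDC1s. No share of all genes was counted at an unadjusted p. The counts at that limit, that of monocytes included, are therefore no result about the members.

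**Figure D3:**
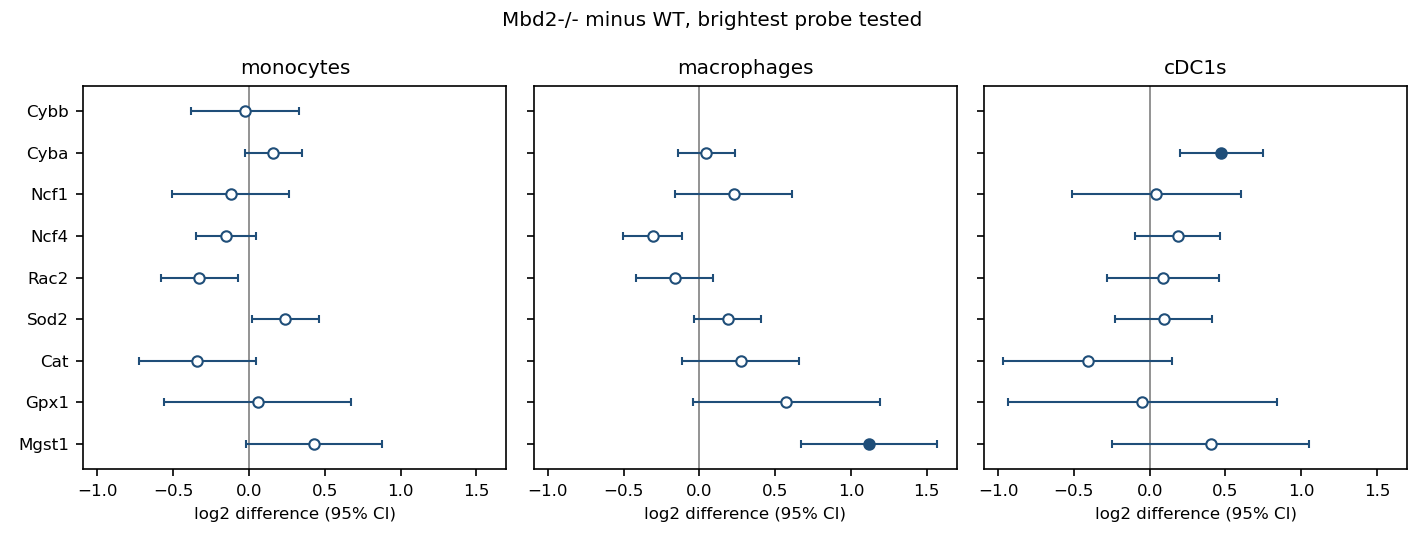
Log2 difference Mbd2-/- minus WT (x axis) with its 95% interval for the brightest tested probe of each of the 9 genes (y axis) in monocytes, macrophages and cDC1s, with filled points for an adjusted p under 0.05 and no point where the gene was not tested. The filled points are Mgst1 in macrophages at 1.12 and Cyba in cDC1s at 0.47.

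Between cell types 4 of 9 members passed for macrophages against monocytes, 4 of 8 for cDC1s against macrophages and 6 of 9 for cDC1s against monocytes. Of all genes tested, 5088 of 12136, 7240 of 13267 and 7119 of 12897 passed in that order. By their brightest probe, Mgst1 and Sod2 were lower in macrophages than in monocytes and lower again in cDC1s. Mgst1 was highest in monocytes (median 10.16, range 9.74 to 10.50 over both genotypes), intermediate in macrophages (8.61, 7.75 to 9.44) and lowest in cDC1s (7.47, 6.34 to 8.05), and monocyte arrays overlapped neither other cell type on this brighter probe, while on the dimmer one monocytes (8.14 to 9.26) overlapped macrophages (5.76 to 8.74). Macrophages were 2.77-fold below monocytes (log2 difference -1.47, SE 0.15, adjusted p = 1.07e-07, limma), at -1.82 within WT and -1.13 within Mbd2-/- arrays. Macrophages and cDC1s overlapped, with cDC1s 2.69-fold lower (-1.43, SE 0.19, adjusted p = 1.58e-06). From monocytes to cDC1s the drop was 7.46-fold (-2.90, SE 0.19, adjusted p = 2.24e-11). On the dimmer probe WT arrays showed no step from macrophages to cDC1s, with means of 6.57 and 6.58. In Mbd2-/- arrays these means were 8.26 and 6.47. Averaged over both genotypes, the dimmer probe's difference between cDC1s and macrophages ran from -1.40 to -0.38 when 1 array was left out.

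Sod2 followed the same order with less scatter. Its median was 12.95 in monocytes (range 12.58 to 13.11), 12.48 in macrophages (12.01 to 12.61) and 11.10 in cDC1s (10.89 to 11.18), so that cDC1s overlapped neither of the other cell types, and monocytes and macrophages overlapped narrowly. Macrophages lay 1.40-fold below monocytes (-0.49 log2, SE 0.07, adjusted p = 2.07e-05, limma) and cDC1s 2.55-fold below macrophages (-1.35, SE 0.09, adjusted p = 5.52e-11). The step from monocytes to cDC1s was 3.58-fold (-1.84, SE 0.09, adjusted p = 2.86e-13). Where both cell types of 1 genotype lay within the same block of 6 columns, the drop to cDC1s was -1.79 from WT monocytes (adjusted p = 0.000318) and -1.41 from Mbd2-/- macrophages (adjusted p = 0.000206).

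Of the oxidase subunits, Cyba was lower in cDC1s (median 12.67, range 12.07 to 12.81) than in macrophages (13.05, 12.87 to 13.25) or monocytes (13.17, 13.00 to 13.43), with no overlap to either. The log2 differences were -0.57 from macrophages (adjusted p = 2.95e-06) and -0.68 from monocytes (adjusted p = 2.45e-07), while the monocyte and macrophage ranges overlapped (-0.11, adjusted p = 0.209, limma). Ncf4 was highest in monocytes (median 11.46, range 11.20 to 11.72), which overlapped macrophages (10.93, 10.68 to 11.34) but not cDC1s (11.00, 10.77 to 11.14). It was lower than in monocytes by -0.51 in macrophages (adjusted p = 2.55e-06) and by -0.49 in cDC1s (adjusted p = 2.87e-05), and cDC1s and macrophages lay 0.02 apart (95% interval -0.15 to 0.19, adjusted p = 0.880), or -0.64 (adjusted p = 0.00349) when arrays were scaled to 1 median instead.

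Rac2 overlapped between all 3 cell types, with medians of 10.27 in monocytes, 10.21 in macrophages and 9.84 in cDC1s. It was lower in cDC1s than in monocytes (-0.42, adjusted p = 0.00218, limma) and than in macrophages (-0.27, adjusted p = 0.0403), the latter passing in 15 of 26 alternatives and being -0.33 (adjusted p = 0.00310) without arrays 12 and 20. Macrophages lay -0.15 from monocytes, or -0.089 (adjusted p = 0.352) without these arrays. The macrophage comparison no longer passed without any 1 of the cDC1 arrays 23, 26, 28 and 30 or the macrophage arrays 11, 13, 14, 16 and 17, with values of -0.31 to -0.23 and a highest adjusted p of 0.156 (without array 23). Within the same block of columns, Rac2 in cDC1s differed by -0.083 from Mbd2-/- macrophages (adjusted p = 0.706, limma), which did not pass. From WT monocytes it differed by -0.61 (adjusted p = 0.00594), which passed. Ncf1 did not differ beyond its spread in any of the cell type comparisons, with medians of 8.39, 8.31 and 8.67 in monocytes, macrophages and cDC1s and log2 differences of -0.04, 0.23 and 0.19 (95% intervals -0.31 to 0.23, -0.11 to 0.57 and -0.15 to 0.53), the first being -0.0086 without arrays 12 and 20. Cybb differed by 0.02 between macrophages and monocytes (adjusted p = 0.904, limma). It was above background on no cDC1 array, so no difference is given for cDC1s.

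Cat went the other way from Mgst1 and Sod2. It was higher in macrophages (median 7.75) than in monocytes (7.09) by 0.48 on the log2 scale (SE 0.13, adjusted p = 0.00583, limma), and in cDC1s (7.74) than in monocytes by 0.54 (adjusted p = 0.00809), with overlap in both. By genotype the macrophage value was 0.17 in WT (adjusted p = 0.560) and 0.78 in Mbd2-/- arrays (adjusted p = 0.00278). With median scaling the cDC1 difference from monocytes fell to 0.03 (adjusted p = 0.923) and the macrophage one was 0.54 (adjusted p = 0.0615). Within the same block of columns, Cat in WT cDC1s lay 0.59 above WT monocytes and did not pass (adjusted p = 0.0631, limma). Gpx1 differed by -0.43 between macrophages and monocytes (adjusted p = 0.107), and by -0.21 (adjusted p = 0.0295) once WT macrophage array 12 was left out, or -0.23 (adjusted p = 0.0152) without arrays 12 and 20. In cDC1s Gpx1 lay 0.42 above macrophages (adjusted p = 0.186), which became 0.19 (adjusted p = 0.0829) without array 12 and 0.22 (adjusted p = 0.0460) without both, and -0.02 from monocytes (adjusted p = 0.962).

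**Figure D4:**
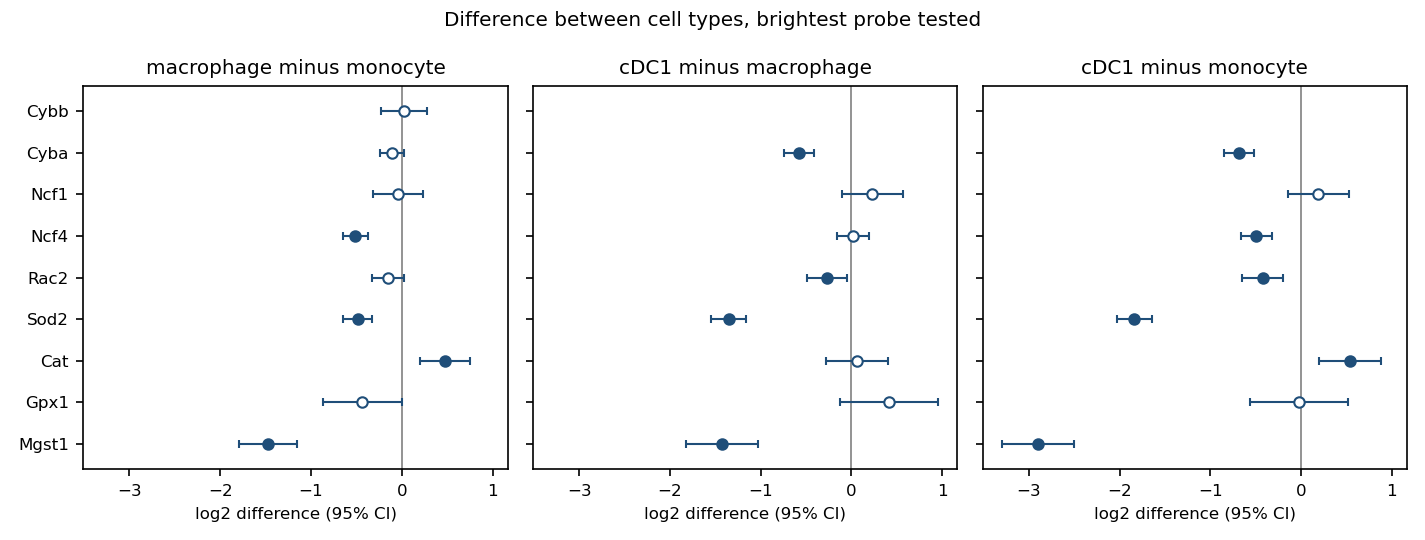
Log2 difference (x axis) with its 95% interval between cell types for the brightest tested probe of each gene (y axis), with both genotypes averaged and filled points for an adjusted p under 0.05, and no point for Cybb in cDC1s, where it was not above background. Mgst1 and Sod2 are the points farthest below 0 in both cDC1 panels, and Cat is the one filled point above 0 in the comparisons with monocytes.

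In counts, 1 member (Cat) was higher and 3 (Ncf4, Sod2 and Mgst1) were lower in macrophages than in monocytes out of 9 tested, beside 23.8% and 18.1% of all 12136 genes. For cDC1s against macrophages 0 of 8 were higher and 4 lower (Cyba, Rac2, Sod2 and Mgst1), beside 26.7% and 27.8% of 13267 genes. For cDC1s against monocytes 1 of 9 was higher (Cat) and 5 were lower (Cyba, Ncf4, Rac2, Sod2 and Mgst1), beside 28% and 27.2% of 12897 genes. The medians of the members beside those of all genes were -0.15 and 0.02, -0.13 and -0.04, and -0.42 and -0.03 in that order. Macrophage and monocyte arrays stand in different blocks of columns within each genotype, so that this cell type difference and a possible chip cannot be told apart. Markers of other cells also differed between the sorts. The T cell list summed to 358 to 2740 on cDC1 arrays and 202 to 499 on monocyte and macrophage arrays. For the neutrophil list the sums were 313 to 597 and 970 to 2304 in the same order. The part of these transcripts in the cell type differences was not tested. Normalization bears on the comparisons with cDC1s most, since median scaling moved the median log2 difference of all genes to -0.38 against macrophages and -0.34 against monocytes.

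A further 73 genes of the same chemistry were read as background to the members, of which 72 had a probe (all but Gsr), in 6 lists of oxidase partners, other NADPH oxidases, peroxide removal, thioredoxin and glutathione supply, glutathione transferases, and the Nrf2 axis. The lists carry earlier knowledge of these data in their choice. Rac1, the Rac GTPase found in most cells, differed between genotypes by 0.17, 0.28 and -0.22 in monocytes, macrophages and cDC1s (adjusted p = 0.820, 0.531 and 0.760, limma).

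Between genotypes in macrophages, 4 of 59 tested genes of these lists were higher and 1 was lower, beside 3.04% and 4.14% of all genes. The higher ones were the glutathione transferases Gstp2 (1.68 log2, adjusted p = 0.0250), Gsto1 (0.60, adjusted p = 0.0283) and Gstp1 (0.48, adjusted p = 0.0215), and Prdx5, a peroxiredoxin (0.41, adjusted p = 0.0226, limma). Gstk1, the mitochondrial and peroxisomal glutathione transferase, was lower (-0.58, adjusted p = 0.0384). For Prdx5 the second probe passed in the same direction as the brightest, and for Gstk1 likewise. Neither of the other tested Gstp1 probes passed, and Gsto1 and Gstp2 have 1 probe each.

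Gsto1 read 10.84, 10.07, 10.87, 10.41 and 10.51 in WT and 11.45, 10.87, 11.05, 11.03 and 11.27 in Mbd2-/- macrophages, with the lowest Mbd2-/- array level with the highest WT array. Gstp1 and Gstp2 are near-identical neighbours whose probes may share signal. All 5 calls were lost without WT macrophage array 12, as were many over all genes, of which 898 passed with every array and 313 without that array. Gstp2 read 4.42 there and was not above background, against 6.12 to 7.27 on the other WT and 7.07 to 8.73 on the Mbd2-/- macrophage arrays. Without that array the values were 1.22, 0.48, 0.44 and 0.32 for Gstp2, Gsto1, Gstp1 and Prdx5 and -0.51 for Gstk1, with adjusted p-values of 0.0650 to 0.117. Mgst1 kept its call without that array, at 1.08 (adjusted p = 0.0174). Except for Prdx5, the 5 calls were lost without other arrays too. Of 10 fits that each left out 1 macrophage array, Prdx5 passed in 9, Gstp1 in 7, Gstp2 and Gsto1 in 6 each and Gstk1 in 5. For Gstp2 and Gstk1 the highest adjusted p (0.0793 and 0.121, limma) came without Mbd2-/- array 20.

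**Figure D5:**
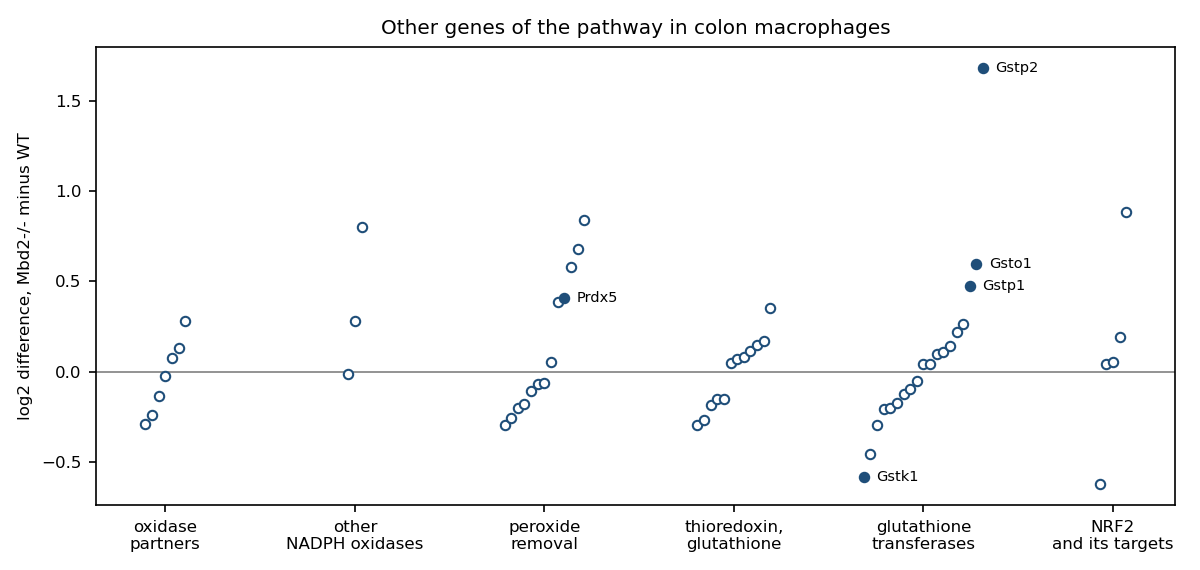
Log2 difference Mbd2-/- minus WT in macrophages (y axis) of the 59 other oxidant genes tested, by list (x axis), with filled and named points for an adjusted p under 0.05. The named points are Gstp2, Gsto1, Gstp1 and Prdx5 above 0 and Gstk1 below 0.

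In monocytes 1 of 57 tested pathway genes was higher and 0 lower, beside 1.08% and 1.43% of all genes, namely Glrx, a glutaredoxin that removes glutathione from proteins (0.43, adjusted p = 0.0444, limma). Glrx passed in 2 of the 10 fits that left out 1 monocyte array, with a highest adjusted p of 0.152 without WT array 3. Of all genes, 144 to 418 passed in these fits, against 300 with every array. The other tested Glrx probe did not pass. In cDC1s 4 of 58 were higher and 0 lower, beside 4.91% and 3.85% of all genes: the glutathione transferases Gstt1 (1.20, adjusted p = 0.00836) and Gstt2 (0.87, adjusted p = 0.00222), thioredoxin Txn1 (1.00, adjusted p = 0.0283) and the mitochondrial thioredoxin reductase Txnrd2 (0.54, adjusted p = 0.0211). The other tested Txn1 probe did not pass. Gstt2 read 6.58 and 6.70 in WT and 7.45, 7.60 and 7.49 in Mbd2-/- cDC1s, without overlap, and it was the 1 gene of the 4 that passed without WT cDC1 array 23.

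Between cell types the lists moved in both directions. Of 7 tested oxidase partners, 7 were lower and 0 higher in cDC1s than in monocytes, 5 were lower and 0 higher in cDC1s than in macrophages, and 4 were lower and 1 higher in macrophages than in monocytes. The higher one was Hvcn1, the proton channel that balances the charge moved by the oxidase (1.63 log2, adjusted p = 1.38e-11, limma). Over all lists, 13 genes were higher and 11 lower of 58 tested in macrophages against monocytes, 8 and 22 of 60 in cDC1s against macrophages, and 8 and 19 of 60 in cDC1s against monocytes. The shares of all genes called higher and lower were 23.8% and 18.1%, 26.7% and 27.8%, and 28% and 27.2% in that order, and these are also the background of the oxidase partner counts.

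Slc7a11, the cystine importer that feeds glutathione synthesis, and Hmox1, heme oxygenase, were both far lower in cDC1s. Slc7a11 stood at 9.71 ± 0.47 in WT monocytes, 8.78 ± 0.40 in WT macrophages (SD, n = 5 each) and 4.94 ± 0.69 in WT cDC1s (n = 2), with log2 differences of -0.85, -3.87 and -4.71 for macrophages against monocytes, cDC1s against macrophages and cDC1s against monocytes. Hmox1 was higher in macrophages than in monocytes (0.60, adjusted p = 0.00449) and lower in cDC1s than in macrophages (-3.96, adjusted p = 2.39e-13) and monocytes (-3.36, adjusted p = 3.58e-12). Slc7a11 was above background on 3 of 5 cDC1 arrays and Hmox1 on 4 of 5, so that the sizes of their cDC1 differences depend on the background level. Sod1, the cytosolic superoxide dismutase, ran against Sod2: it was higher in cDC1s by 1.03 than in macrophages (adjusted p = 3.7e-09) and by 0.91 than in monocytes (adjusted p = 2.2e-08), where Sod2 was lower by its values above.

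The genes whose levels tracked each member most closely over the 25 arrays, among 16127 probes detected on enough arrays, are given as a description, in which all genes share the cell type groups of the arrays. Sod2 ran with Gpr84 (r = 0.987), Slc7a11 (0.979) and Inhba (0.978). Mgst1 ran with 2010111I01Rik (0.932), Dgat2 (0.930) and Hp (0.926), and Cyba with Rnpep (0.912), Aldh3b1 (0.892) and Cib2 (0.892). Ncf4 was closest to Brpf1 (0.882), Psd4 (0.874) and Ambp (0.871), and Rac2 to Adam15 (0.830), ORF61 (0.802) and Dgkz (0.795). The closest for Cat were Zc4h2 (0.822), Wnk1 (0.796) and 1110034A24Rik (0.786), for Ncf1 Dazap1 (0.766), Evl (0.715) and Gga3 (0.657), and for Cybb Tcf7l2 (0.852), D030017L14Rik (0.720) and Rab14 (0.715). Gpx1 ran with LOC381999 (0.963), LOC382230 (0.961) and H3f3a (0.953), a likeness to which array 12 contributes. Once group means were taken out, the highest correlations among the members were those of Rac2 with Gpx1 (r = 0.71) and Cat with Gpx1 (0.58), for which array 12 was low in each gene, and the lowest was Ncf1 with Mgst1 (-0.44).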

How the data were processed

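Per the labels, total RNA of sorted cells was amplified with TotalPrep kits and hybridised to Illumina BeadChips, 1 array per sample. The authors deposited a single table of raw bead intensity values per probe and array, with detection p-values, bead numbers and bead errors, not normalized, and the submitters' processing notes name lumi and limma (versions not given in the sources used here). The deposited detection p-value served as the limit for a probe above background (p under 0.05). A total of 3 signal columns of the table matched no sample and were not used. The 25 colon arrays were background-corrected by normexp on 936 negative control probes with an offset of 16, quantile-normalized and taken to log2. One limma model over the 6 groups (limma 3.58.1, R 4.3.3, data.table version 1.17.8) gave the moderated tests, without replicate pairing. Benjamini-Hochberg adjustment ran over all probes tested in a comparison, those detected on at least as many arrays as its smaller group holds, and a gene passed at an adjusted p under 0.05 on its brightest tested probe. Genes were named by rule: all 9 members with every probe, per comparison up to 4 pathway genes in each direction with the largest passing change, Rac1, and the 3 genes closest to each member. A further gene that the rule names is not reported here. Members, lists and rules were chosen with earlier results of these data known. Nothing in the labels says which mice an array holds, so p-values measure the spread between these samples, whose number limits the precision. The paper states that the replicates came from 3 separate experiments. The sample titles name no experiment, and no term for it was fitted. Alternatives changed the background correction, scaling, filter, model, weights, threshold, column block and the arrays included. The model was tested on simulated data.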

Additional observations from a re-analysis of the deposited data

Results flagged for a closer look

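Of 32 groups of 5 arrays examined for a reading far from the rest, 3 held one, where chance alone gives about 1 in 20. Gpx1 on WT macrophage array 12 read 10.81 and Cat on the same array read 6.77, both far below the other 4 WT macrophage arrays. Cat on Mbd2-/- macrophage array 20 read 7.30, below the other 4 Mbd2-/- macrophage arrays. The dimmer Mgst1 probe gave genotype effects that differed between cDC1s and macrophages by -1.80 on the log2 scale (adjusted p = 0.0474, limma), while the brighter probe gave -0.72 (adjusted p = 0.251).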

How the results depend on the processing

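Precision was limited by the number of arrays, 2 to 5 a group, with 16 to 57 beads per probe and array. For Cybb, the dimmer Cat and the dimmer Ncf1 probes it was also limited by signal over background. The number of all genes passing moved between alternatives as well. In macrophages it was 898 with every array and ran from 313 to 1413 when 1 array was left out. In cDC1s 641 genes were higher and 502 lower, against 45 and 123 with median scaling. Such a number was not set beside each member count below, so those counts are no result about the members. The count of members passing between genotypes in macrophages rose from 1 to 2 (Ncf4 added) without background correction, with a stricter filter on dim probes and with blocks of 6 columns as a random block chosen after seeing the data, and ran from 1 to 2 when 1 array was left out (2 without WT array 13, WT array 15 or Mbd2-/- array 16). In cDC1s it fell from 1 to 0 (Cyba lost) with median scaling, no filter, cDC1s fitted alone, array weights or a threshold of 0.01, and ran from 0 to 1 when 1 array was left out (0 without WT array 23 or Mbd2-/- array 28 or 30). In monocytes it rose from 0 to 1 when they were fitted alone (Mgst1) or with array weights (Rac2). For the difference between the cDC1 and macrophage genotype effects it rose from 0 to 1 with cyclic loess and with the stricter filter, and ran from 0 to 2 when 1 array was left out.

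Signs turned only for member values that had not passed in the analysis reported, and the cause was not tested. With median scaling Gpx1 was -0.00598 between genotypes in monocytes, and in cDC1s Ncf1 was -0.29, Rac2 -0.042, Gpx1 0.56 and Mgst1 -0.0053. For cDC1s against macrophages it gave Ncf1 -0.38, Ncf4 -0.64 (the 1 of these to pass), Cat -0.50 and Gpx1 -0.026, and against monocytes Ncf1 -0.38. With cyclic loess, Ncf1 was -0.023 and Gpx1 0.31 between genotypes in cDC1s, and Gpx1 0.35 for cDC1s against monocytes. With array weights Ncf1 was 0.00633 for macrophages against monocytes and Cat -0.038 for cDC1s against macrophages. Without WT array 12 and Mbd2-/- array 20, left out together after seeing the data, Cybb was -0.012 for macrophages against monocytes and Cat -0.092 for cDC1s against macrophages.

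When 1 array was left out, the genotype difference in monocytes ran from -0.14 to 0.068 for Cybb, from -0.22 to 0.055 for Ncf1 and from -0.0064 to 0.11 for Gpx1. In macrophages Cyba ran from -0.0018 to 0.093. In cDC1s Ncf1 ran from -0.13 to 0.27, Rac2 from -0.016 to 0.16, Sod2 from -0.014 to 0.20, Gpx1 from -0.16 to 0.021 and Mgst1 from -0.28 to 1.09. For macrophages against monocytes Cybb ran from -0.027 to 0.081 and Ncf1 from -0.13 to 0.014, for cDC1s against monocytes Gpx1 ran from -0.072 to 0.018, and for cDC1s against macrophages Ncf4 ran from -0.038 to 0.072 and Cat from -0.032 to 0.17.

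Median scaling also moved the share of passing genes that were higher, from 42.3% to 68.9% between genotypes in macrophages (53.2% with cyclic loess), from 56.1% to 26.8% in cDC1s, from 49.0% to 14.8% for cDC1s against macrophages and from 50.8% to 18.6% against monocytes. Beside it the median log2 difference of all genes was -0.25 between genotypes in monocytes and -0.18 in cDC1s. No paired analysis was possible because the groups share no replicate numbers. Label numbers that differ by 10 between monocyte and macrophage arrays, taken as a random block (consensus correlation 0.194), changed no count of members passing. The blocks of 6 columns could be fitted as fixed terms only for the genotype differences in monocytes and macrophages and for the comparisons within 1 genotype given above.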

Other observations

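The series also holds 1 WT and 1 Mbd2-/- array of splenic CD4 T cells, which enter no comparison above. Their labels name a colitis model by T cell transfer, at 6 weeks, and no DSS. Normalized together with the 25 colon arrays, Rac2 read 11.96 in WT and 12.29 in Mbd2-/- T cells, above the colon range of 9.66 to 10.55 on the same scale. Ncf1 read 5.95 and 5.90, below the colon range of 7.54 to 8.79, and Sod2 read 10.35 and 9.90, below its colon range of 10.84 to 13.09. Mgst1 read 6.15 and 5.32, Cyba 12.64 and 13.10, Ncf4 10.15 and 10.46, Gpx1 12.17 and 11.94, and Cat 7.53 and 7.45, while Cybb was not above background on either array. With 1 array per genotype these values have no replicate check.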
